A study of Homo sapiens with 3 samples.

Results

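Inflammatory signalling in HEC1B, an established cell line from a human endometrial cancer, was followed through 10 genes of the 26485 in the deposited count table. They comprise 8 chemokines (CCL2, CCL5, CCL20, CXCL1, CXCL8, CXCL10, CXCL11 and CXCL16) and the cytokines IL1A and IL32. The genes were chosen by symbol, with earlier counts of the same libraries in view, so their values are given as a description and carry no test. They were separated into 3 interferon-type chemokines (CCL5, CXCL10 and CXCL11) and 7 NF-kappaB-type genes (the other members), after the signalling route for which each group is best known. The study knocked down PRMT6, an enzyme that methylates arginines of histones and other proteins, with siRNAs, and sequenced total RNA at 48 h. The control group held 1 library with the siRNA siNC, and the knockdown group held 2 libraries, siPRMT6-1 and siPRMT6-2, each made with its own siRNA. All libraries came from HEC1B cells labelled wild type, a single cell line, and the labels name no further treatment. The column names of the table number the PRMT6 siRNAs differently from the sample titles, and the assignment used here rests on both labels of each sample.

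Chemokines are small secreted proteins that attract leukocytes through G protein-coupled receptors. CXCL10 and CXCL11 are ligands of CXCR3 and draw activated T cells, and CCL5 draws T cells and monocytes; all 3 are well known as outputs of interferon and virus-sensing pathways, in which STAT and IRF factors bind interferon response elements, although NF-kappaB also takes part. CXCL1, CXCL8, CCL2 and CCL20, which attract neutrophils, monocytes and CCR6-bearing lymphocytes, are textbook products of IL-1 and TNF signalling through NF-kappaB, and epithelial cells such as those of the endometrium can secrete them.

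At 362080 to 410916 counts per library, most of the members lay at the limit of detection. Levels are given as CPM, the count scaled to a common library size. A single count was worth 2.59 CPM in siNC and 3.03 CPM in siPRMT6-2, and 3 counts, the floor used where a library held 0, were worth 7.78, 8.09 and 9.09 CPM. At least 10 counts were reached by 5512 to 5754 genes per library. PRMT6 itself had 25 counts with siNC, and the knockdown libraries held 4 (siPRMT6-1) and 7 (siPRMT6-2), or 0.167 (95% interval 0.0421 to 0.482) and 0.327 (0.120 to 0.778) of the control level. Intervals are exact, Poisson for a count and binomial for a ratio of libraries or a share, and cover counting error only. Whether separate cultures were used is not stated in the labels, and any p-value then measures only how far these libraries lie apart. Strand also bears on every count: among 147 gene pairs in which an antisense-named gene shares at least 100 exon bases with its partner and the pair holds at least 100 counts, the antisense-named gene had more counts than the partner in 121 pairs in siNC. If reads were assigned to the strand opposite to the transcripts throughout, each member's counts would come from the strand opposite to its gene. This was not tested. Of the epithelial markers, KRT8 had 681 to 1329 counts and KRT18 85 to 129, but these genes share exon bases on opposite strands, EPCAM had 4 or 5, and KRT19 and CDH1 had 0 in each library. Of the endometrial lineage markers, HOXA10 had 58 to 65 counts and PAX8 117 to 227, both with an antisense partner, while SOX17 and PGR had 0.

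The 10 genes fell into a few patterns. CCL5 and IL32 were counted in siPRMT6-2 and had 0 counts in the other libraries. IL1A had 1 count in siNC and more with both PRMT6 siRNAs. CXCL16 was the only member counted well in every library, and it was highest in siPRMT6-1. The remaining 6 members had at most 2 counts in any library. A count was present for 4 members in siNC, 3 in siPRMT6-1 and 8 in siPRMT6-2. Of all 26485 genes, 13790, 14004 and 13988 had a count in the same order. At least 10 counts were reached by 1, 2 and 2 members, and by 21.7%, 21.4% and 20.8% of all genes. CXCL10 and CXCL8 had 0 counts in all 3 libraries, as did 38.7% of all genes in the table.

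**Figure D1:**
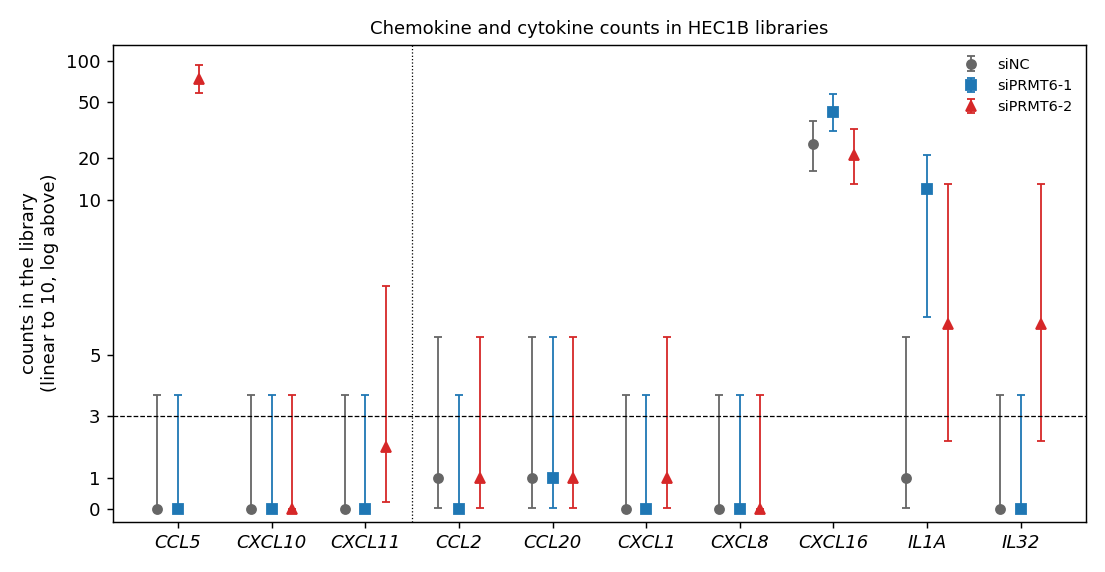
Counts of each member (x axis) in the siNC, siPRMT6-1 and siPRMT6-2 libraries (y axis, linear up to 10 counts and logarithmic above), with exact 95% Poisson intervals; the dotted vertical line separates interferon-type from NF-kappaB-type genes and the dashed line marks the floor of 3 counts. CCL5 stands at 74 counts in siPRMT6-2 and at 0 elsewhere, CXCL16 lies between 21 and 43 in all libraries, and IL1A is at 1, 12 and 6.

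Among the interferon-type chemokines, nearly all counts belonged to CCL5 and to siPRMT6-2. CCL5, also known as RANTES, lies on the minus strand at chr17:35871491-35880373 (hg38) with 1312 exonic bases in the authors' gene model, and a further copy of the model lies on an alternate contig. It had 0 counts with siNC, 0 with siPRMT6-1 and 74 (58.1 to 92.9) with siPRMT6-2, or 224 CPM. The siPRMT6-2 library thus stood alone. Its level was 28.8-fold that of siNC and 27.7-fold that of siPRMT6-1 with the floor of 3 counts in place of their 0. These are bounds against the floor and not limits of counting error, as a count of 0 has an upper limit of 3.69. Per kilobase of exon, CCL5 in siPRMT6-2 was at 171 CPM (134 to 215), the highest of the members in any library, against an upper limit of 7.29 in siNC. No gene in the authors' table shares exon bases with CCL5 on the opposite strand. GENCODE release 29 lists an antisense gene, AC015849.1, across it, with 0 shared exon bases.

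CXCL10 and CXCL11, the CXCR3 ligands, lie side by side on chromosome 4 within the span of ART3, which is on the other strand and shares 0 exon bases with either. CXCL10 (chr4:76021116-76023536, minus strand, 1216 exonic bases) had 0 counts in each library. CXCL11 (chr4:76033687-76036197, minus strand, 1601 exonic bases) had 0 counts with siNC, 0 with siPRMT6-1 and 2 with siPRMT6-2. Neither exceeded the floor anywhere, so no ratio is given, and a difference between libraries below 7.78 to 9.09 CPM was not detectable for them at this depth. CCL5 therefore made up 97.4% (90.8 to 99.7) of the interferon-type counts in siPRMT6-2.

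Promoter windows show which response elements these genes carry next to the start sites annotated by RefSeq (GRCh38.p14). The table held a window, from 250 bases upstream to 50 downstream of a start, for 7 of the 10 members, with no entry for CCL5, CCL2 and CXCL16. CXCL10 and CXCL11 are shown first because CXCL10 carries an interferon-stimulated response element (ISRE) with kappaB matches, and CXCL11 carries a kappaB match beside an AP-1 match (TGANTCA). Both are written 5′ to 3′ on the gene's strand, with the matches in capitals. They cover chr4:76023602-76023727 and chr4:76036131-76036160, both on the minus strand.
CXCL10: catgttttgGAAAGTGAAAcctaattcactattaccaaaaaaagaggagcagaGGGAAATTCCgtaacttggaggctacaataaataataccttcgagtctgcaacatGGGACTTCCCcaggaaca
CXCL11: gcaTGACTCAaagaGGGAAATTCCtgtgcc

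The ISRE of CXCL10 begins 221 bases before the start site and its kappaB matches at 177 and 122. In CXCL11 the AP-1 match begins 87 bases and the kappaB match 76 bases before the start site, and a TATA box (TATAAA) follows at 42. CXCL11 also holds the STAT-type element GAS (TTCNNNGAA) at 240 bases upstream and at 19 bases downstream. All 30 bases shown for CXCL11 lie in an exon of the authors' gene model, which starts farther upstream than the RefSeq start. Both genes thus carry letters of both routes, interferon and NF-kappaB, while their counts stayed at 0 to 2.

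The NF-kappaB-type group was counted in every library, mainly through CXCL16. Its 7 genes summed to 28 counts (72.6 CPM) with siNC, 56 (151 CPM) with siPRMT6-1 and 36 (109 CPM) with siPRMT6-2. The siPRMT6-1 library was the highest and siNC the lowest. Relative to siNC the sum was 2.08-fold (1.30 to 3.40) in siPRMT6-1 and 1.50-fold (0.892 to 2.56) in siPRMT6-2. The 2 knockdown libraries differed from each other by 0.722-fold (0.461 to 1.12), an interval that includes 1. The interferon-type sum had another order, with 0, 0 and 76 counts (59.9 to 95.1 in siPRMT6-2, 230 CPM). In siPRMT6-2 it was 29.6-fold the siNC level with the floor of 3 counts in place of the 0 in siNC. Since the sums rest on members chosen with these counts known, they describe the libraries and support nothing beyond them.

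**Figure D2:**
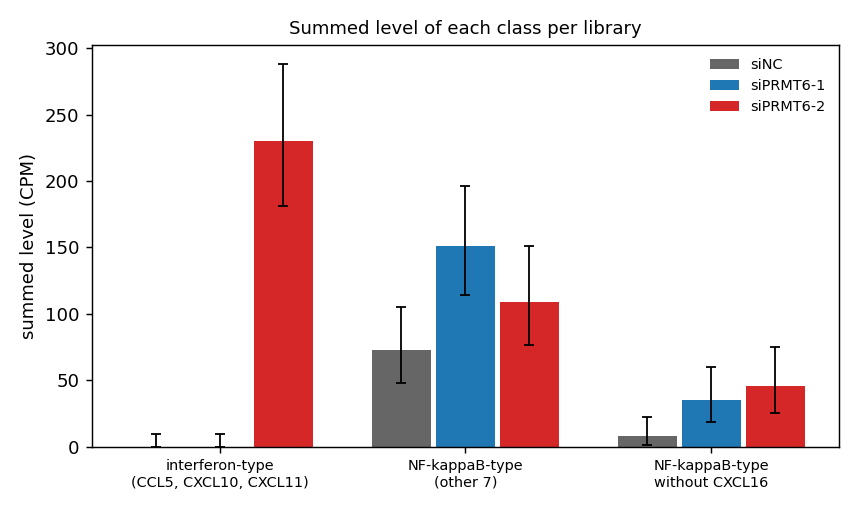
Summed level in CPM (y axis, from 0) of the interferon-type members, the NF-kappaB-type members and the NF-kappaB-type members without CXCL16 in each library, with exact 95% Poisson intervals of the summed counts as bars. The interferon-type sum is seen in siPRMT6-2 alone at 230 CPM, and the NF-kappaB-type sum is present in all libraries, at 72.6, 151 and 109 CPM.

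CXCL16 is a chemokine made as a membrane-anchored protein, which serves as a scavenger receptor and adhesion molecule and, once shed by ADAM10 or ADAM17, attracts cells that carry CXCR6. It lies at chr17:4733529-4739928 on the minus strand with 2402 exonic bases. It had 25 counts (16.2 to 36.9) with siNC, 43 (31.1 to 57.9) with siPRMT6-1 and 21 (13 to 32.1) with siPRMT6-2, or 64.8, 116 and 63.6 CPM. The siNC and siPRMT6-2 libraries lay together and siPRMT6-1 stood above them. The ratio to siNC was 1.79 (1.07 to 3.06) in siPRMT6-1 and 0.982 (0.523 to 1.83) in siPRMT6-2, and siPRMT6-2 stood at 0.549 (0.309 to 0.945) of siPRMT6-1. CXCL16 shares 82 exon bases with MED11, a Mediator subunit gene on the opposite strand that had 0, 2 and 2 counts. The only receptor known for it, CXCR6, had 3 counts with siNC, 3 with siPRMT6-1 and 4 with siPRMT6-2, and its sheddases were also low, with 4, 2 and 8 counts of ADAM10 and 9, 6 and 9 of ADAM17. CXCL16 supplied 89.3% (71.8 to 97.7) of the NF-kappaB-type counts in siNC, 76.8% (63.6 to 87.0) in siPRMT6-1 and 58.3% (40.8 to 74.5) in siPRMT6-2.

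Without CXCL16 the order of the NF-kappaB-type group was different. The other 6 genes summed to 3 counts with siNC, 13 with siPRMT6-1 and 15 with siPRMT6-2, so both knockdown libraries exceeded the control. Their ratio to siNC was 4.51 (1.24 to 24.7) in siPRMT6-1 and 5.84 (1.65 to 31.5) in siPRMT6-2, while siPRMT6-2 against siPRMT6-1 gave 1.30 (0.575 to 2.96). In siPRMT6-1, IL1A alone held 12 of the 13 counts and IL32 had 0, while in siPRMT6-2 IL1A and IL32 held 6 each.

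IL1A encodes interleukin-1 alpha, an alarmin that signals through IL1R1 and is cut by calpain. The gene lies at chr2:112773915-112785394 on the minus strand with 2928 exonic bases, and no gene in the authors' table shares its exon bases on the opposite strand. It had 1 count with siNC, 12 (6.20 to 21.0) with siPRMT6-1 and 6 (2.20 to 13.1) with siPRMT6-2, or 2.59, 32.4 and 18.2 CPM. Both PRMT6 siRNAs lay above the control, and the siPRMT6-1 value was the higher of the pair. The ratio to siNC, which rests on its single count, was 12.5 (1.85 to 534) in siPRMT6-1 and 7.01 (0.851 to 323) in siPRMT6-2. The siPRMT6-2 interval includes 1, and the 2 knockdown libraries differed by 0.562-fold (0.173 to 1.62). IL1A was the member whose counts were higher than in siNC with both siRNAs and above the floor in both. CKAP2L, 9238 bases away on the same strand, had 18, 21 and 9 counts.

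IL32 encodes a cytokine of T cells, natural killer cells and epithelial cells that can induce TNF and other inflammatory cytokines. The gene lies at chr16:3065312-3069819 on the plus strand with 1483 exonic bases. It had 0 counts with siNC, 0 with siPRMT6-1 and 6 (2.20 to 13.1) with siPRMT6-2, or 18.2 CPM, the same order of libraries as CCL5 at a far lower count. The siPRMT6-2 level was 2.34-fold that in siNC and 2.25-fold that in siPRMT6-1 with the floor of 3 counts in place of their 0, but its counting interval reaches below that floor. Its neighbour MMP25, 4589 bases away on the same strand, had 31, 24 and 16 counts.

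A stretch of each promoter window is shown for these cytokines because IL1A holds an AP-1 match right before the start and IL32 a kappaB match. IL1A covers chr2:112784494-112784523 (minus strand) and IL32 covers chr16:3065278-3065318 (plus strand), written as above with matches in capitals.
IL1A: acaaaaggcgaagaagacTGACTCAggctt
IL32: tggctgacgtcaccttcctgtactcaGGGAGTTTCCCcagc

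The IL1A match begins 12 bases before the first of its annotated start sites, a further AP-1 match begins 39 bases after it, and the window holds no kappaB match. All 30 bases shown for IL1A, and 7 of the 41 shown for IL32, lie in an exon of the authors' gene models. In IL32 the kappaB consensus matches on both strands, from 99 and 98 bases before the start site.

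The 4 inducible chemokines of the NF-kappaB-type group were barely counted. CXCL8, the main neutrophil attractant (chr4:73740506-73743716, plus strand), had 0 counts in each library. CXCL1, a CXCR2 ligand (chr4:73869392-73871302, plus strand), had 0, 0 and 1, and CCL2, the monocyte attractant also called MCP-1 (chr17:34255277-34257201, plus strand), had 1, 0 and 1. CCL20, the CCR6 ligand (chr2:227813842-227817564, plus strand), had 1 count in each library. None exceeded the floor, and differences between libraries were not detectable for these genes at this depth. In 6 of the 10 members, these 4 with CXCL10 and CXCL11, the sum over all libraries was under 5 counts. The same held for 14441 of all 26485 genes.

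The promoter windows of CXCL1, CCL20 and CXCL8 carry matches to the kappaB consensus or AP-1, and a stretch of each is printed to show that the letters are present in genes with almost no counts. CXCL1 covers chr4:73869293-73869343, CCL20 covers chr2:227813742-227813792 and CXCL8 covers chr4:73740419-73740469, all on the plus strand.
CXCL1: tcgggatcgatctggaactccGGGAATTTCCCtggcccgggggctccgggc
CCL20: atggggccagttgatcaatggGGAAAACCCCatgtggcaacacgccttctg
CXCL8: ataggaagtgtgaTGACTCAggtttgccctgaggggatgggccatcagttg

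The kappaB match begins 79 bases before the start site in both CXCL1 and CCL20, overlapping matches on both strands in the first and a match on the minus strand only in the second. The AP-1 match of CXCL8 begins 137 bases upstream. Its window holds no match to the kappaB consensus used here, which says only that these letters are not in it. A TATA box lies 29 bases upstream in CCL20 and 31 in CXCL8. Over the 7 members with a window, the kappaB consensus was found in 5 (CXCL10, CXCL11, CXCL1, CCL20 and IL32). By window it was in 5 of 9, against 5.91% of all 35116 promoter windows in the table. AP-1 was found in 3 members and 4 of the 9 windows, against 7.71% of all windows. The TATA box was in 4 windows against 11.5%, the ISRE in 1 against 3.57% and GAS in 1 against 7.66%. The TATAAA match of IL1A lies 239 bases upstream. The members were grouped by known route, so these shares are not read further. Matches were searched on both strands, an AP-1 match reads the same on both, and a match is a run of letters and not a measured binding site. A kappaB match occurred in IL32, with 6 counts in siPRMT6-2, and in CXCL10, with 0. CCL5 and CXCL16, the members with the most counts, had no window. Whether the windows differ between counted and uncounted genes could therefore not be judged and was not tested.

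**Figure D3:**
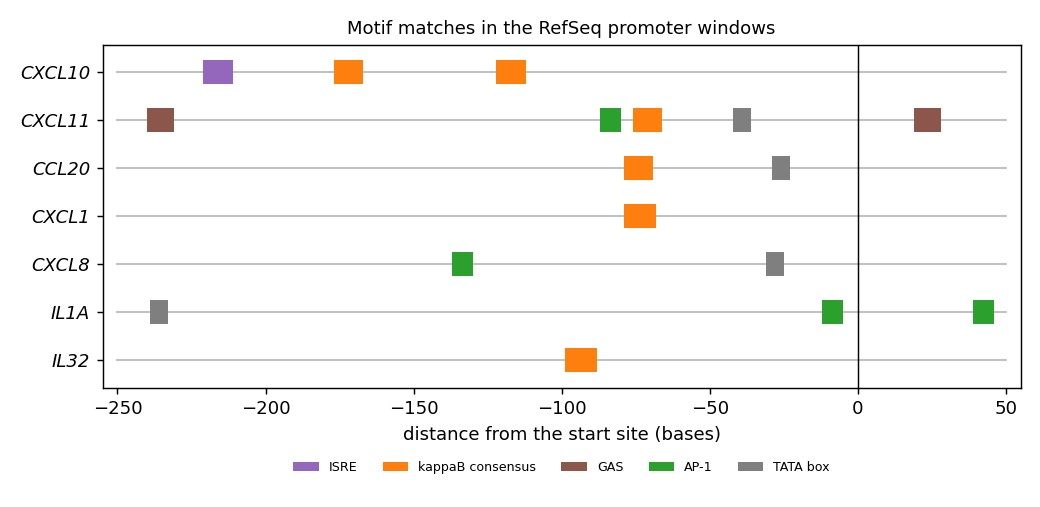
Position of each motif match (coloured boxes) in the RefSeq promoter window of 7 members, as distance in bases from the annotated start site (x axis, vertical line at the start); for IL1A the first of its windows is drawn. The kappaB consensus appears in 5 genes, between 177 and 76 bases upstream, the ISRE in CXCL10 alone and GAS in CXCL11 alone.

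Compared per kilobase of exon, the order of levels differed between libraries. In siNC, CXCL16 was at 27.0 CPM per kilobase (17.5 to 39.8) and no other member was over the floor. In siPRMT6-1, CXCL16 was at 48.3 (34.9 to 65.0) and IL1A at 11.1 (5.71 to 19.3), with intervals that did not overlap. In siPRMT6-2 the order was CCL5 at 171, CXCL16 at 26.5 (16.4 to 40.5), IL32 at 12.3 (4.50 to 26.7) and IL1A at 6.21 (2.28 to 13.5). CCL5 lay apart from CXCL16 there, while the neighbours CXCL16 and IL32, and IL32 and IL1A, had overlapping intervals. CCL5 alone held 66.1% (56.5 to 74.8) of the counts of all 10 members in siPRMT6-2. The total over the 10 was 28, 56 and 112 counts, 2.08-fold (1.30 to 3.40) of siNC in siPRMT6-1 and 4.68-fold (3.07 to 7.35) in siPRMT6-2.

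The test across all genes made no call that could be set beside these values. With edgeR's quasi-likelihood test of both knockdown libraries against siNC, 3 members (CCL5, CXCL16 and IL1A) passed the filter on low counts, CCL5 only through siPRMT6-2 and IL1A only through siPRMT6-1, and 0 of the 3 were called, as were 0 of 6803 genes tested (0%). At an unadjusted p under 0.05 the test held 186 genes and DESeq2, which also called 0, held 13. The fit has 1 residual degree of freedom, the difference between the siRNAs, so a gene that is high in siPRMT6-2 alone has a large spread in it. By counts, 2 of the 10 members, CCL5 and IL32, had 0 in siNC and siPRMT6-1 and more than 3 in siPRMT6-2, as did 73 of all 26485 genes (0.276%). The members were chosen with these counts known, so the share is not read further. At least 2-fold higher than siNC, on the scale of log2 CPM with a prior count of 2, were 1 of the 3 tested members in siPRMT6-1 (IL1A), against 4.89% of tested genes, and 2 of 3 in siPRMT6-2 (CCL5 and IL1A), against 8.16%. IL1A in siPRMT6-1 and CCL5 in siPRMT6-2 passed the filter only through the library in which they were high, as did 152 of the 333 and 267 of the 555 tested genes that were 2-fold higher there, so these counts are not read further. At least 2-fold lower were 0 of 3 in siPRMT6-1 (4.38% of tested genes) and 0 of 3 in siPRMT6-2 (5.38%). On that scale IL1A differed from siNC by 2.22 and 1.55, CXCL16 by 0.79 and -0.02, and CCL5 by 5.38 in siPRMT6-2, where it depends on the prior count. The IL1A value in siPRMT6-2 also depends on the prior count, and with a prior count of 5 it was 0.96, under 2-fold.

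The chemokine genes stand in clusters, and counts of the neighbours show how far the pattern of CCL5 extended. Of 12 chemokine genes from CCL5 to CCL3L3 on chromosome 17, 8 had 0 counts in all libraries and 4 (CCL5, CCL3, CCL3L1 and CCL3L3) were counted in siPRMT6-2 only. Of all 26485 genes, 38.7% had 0 counts in all libraries and 890 genes were counted in siPRMT6-2 only. CCL3, a macrophage inflammatory protein, had 0, 0 and 28 counts, in siPRMT6-2 10.9-fold the siNC level with the floor of 3 counts in place of the 0 in siNC. CCL3L1 had 0, 0 and 50, but its model shares 779 exon bases with CCL3 and 773 with CCL3L3, which had 0, 0 and 21, and the authors' counting added a read in overlapping genes to each, so these counts are partly the same reads. All 4 genes lie on the minus strand, and CCL4, CCL4L1 and CCL4L2, on the plus strand of the same stretch, had 0 throughout. The nearest gene to CCL5 on its own strand, HEATR9, at 2600 bases, had 0, 1 and 1 counts, and TAF15, 24249 bases away on the other strand, had 19, 10 and 17. In the cluster of CCL2, 5 of 6 chemokine genes had 0 counts in all libraries. From CXCL8 to CXCL2 on chromosome 4, 3 of 6 had none, and 2 (CXCL1 with 1 count and CXCL3 with 2) had counts in siPRMT6-2 only. CXCL2, a neutrophil attractant like CXCL1, had 2, 1 and 12, a siPRMT6-2 ratio of 7.01 (1.56 to 64.5). CXCL9, the third CXCR3 ligand, had 0 in each library.

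**Figure D4:**
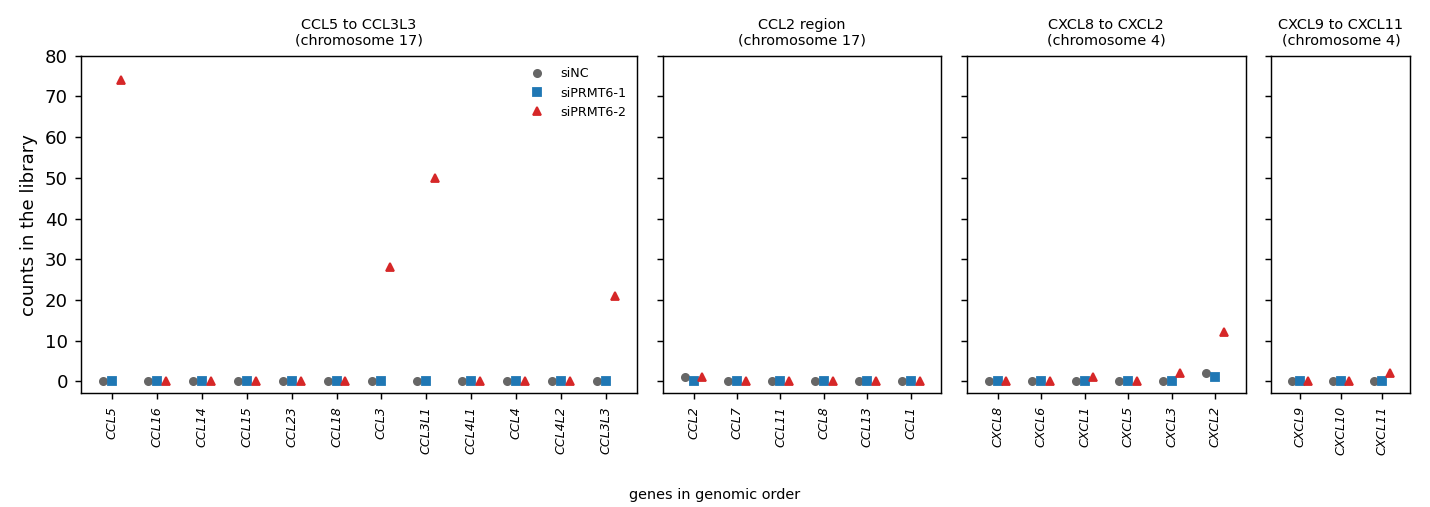
Counts in each library (y axis) of the chemokine genes in 4 genomic clusters, with genes in genomic order along the x axis. From CCL5 to CCL3L3, CCL5 with 74, CCL3 with 28, CCL3L1 with 50 and CCL3L3 with 21 counts stand above 0 in siPRMT6-2, while most genes of the other clusters lie at 0.

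Genes around the members in the pathway were described from lists. Of 40 other chemokines, 10 had a count and 5 passed the filter. CX3CL1, like CXCL16 a membrane-anchored chemokine, was the most counted in siNC, with 29, 32 and 36 counts, and its ratios to siNC were 1.15 (0.673 to 1.97) and 1.45 (0.865 to 2.45). In siPRMT6-2, 4 of the 5 tested (CCL3, CCL3L1, CCL3L3 and CXCL2) were at least 2-fold higher, against 8.16% of all tested genes. In siPRMT6-1 none was, against 4.89%. The median log2 fold change was 0.00 in siPRMT6-1 and 3.65 in siPRMT6-2, against 0.01 and 0.01 over all tested genes, but all 4 passed the filter only through siPRMT6-2, which fixes that count and that median.

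Several receptors of the secreted chemokines among the members were not counted in these cells. CXCR3, CCR1, CXCR1, CXCR2, CCR2 and CCR6 had 0 in each library. Of 23 chemokine receptors, 7 had a count and 2 were tested: CCR10 with 22, 10 and 14 counts, and CXCR5, which has a partner on the opposite strand (BCL9L), with 13, 10 and 11. The siPRMT6-1 ratio of CCR10 was 0.473 (0.20 to 1.04), an interval that includes 1, and that of CXCR5 was 0.801 (0.314 to 1.98).

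On the IL-1 side, 9 of 20 genes of the IL-1 family and its receptors had a count. IL1R1, the signalling receptor for IL1A, had 10 counts with siNC, 11 with siPRMT6-1 and 21 with siPRMT6-2, with ratios of 1.14 (0.441 to 3.01) and 2.45 (1.11 to 5.84). IL18, a related cytokine activated by caspase-1, had 4, 4 and 13, with a siPRMT6-2 ratio of 3.8 (1.17 to 16). IL18 passed the filter only through siPRMT6-2. Neither gene was 2-fold higher in siPRMT6-1, where IL1A had its highest count. IL18BP, the decoy that binds IL18, had 4, 5 and 9 counts and has NUMA1 on the opposite strand. Of the calpain genes that cut the IL1A precursor, CAPN1 had 96, 44 and 69 counts, a siPRMT6-1 ratio of 0.477 (0.326 to 0.688), while CAPN2 had 57, 61 and 60, and the shared small subunit CAPNS1 had 47, 58 and 40. CAPN1 in siPRMT6-1 was the only case at least 2-fold from siNC, on the log2 CPM scale with a prior count of 2, among the 4 tested of 7 proteases that process members. Of all tested genes, 4.38% were at least 2-fold lower in siPRMT6-1.

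Of 16 other inflammatory cytokines, 12 had a count and 3 were tested. CSF1, the macrophage growth factor, had 6, 5 and 48 counts, a siPRMT6-2 ratio of 9.35 (4.0 to 26.7), and passed the filter only through that library. LIF, a cytokine of uterine receptivity, had 26, 15 and 31 counts, with ratios of 0.600 (0.296 to 1.18) and 1.39 (0.801 to 2.44). MIF had 141, 140 and 98 and has an antisense partner, MIF-AS1. CSF1 followed the order of CCL5, with the difference that it was also counted in the other libraries.

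All 17 genes in a list of NF-kappaB subunits, inhibitors and feedback targets had a count, and 10 were tested. On the log2 CPM scale with a prior count of 2, 5 were at least 2-fold higher in siPRMT6-2 (NFKB1, NFKB2, NFKBIA, TNFAIP3 and ICAM1), where 8.16% of all tested genes were, and 0 lower, against 5.38%. NFKB1, NFKBIA and TNFAIP3 passed the filter only through siPRMT6-2, so they had to be high there. In siPRMT6-1, 3 were at least 2-fold lower (NFKBIA, TNFAIP2 and ICAM1), against 4.38% of all tested genes, and 0 higher, against 4.89%. The median was -0.56 in siPRMT6-1, against 0.01 over all tested genes. In siPRMT6-2 it was 0.93 over the 10 genes and 0.28 over the 7 that did not depend on that library to pass the filter. NFKBIA, the inhibitor that NF-kappaB itself induces, had 10, 2 and 27 counts, and TNFAIP2 had 51, 14 and 53, a siPRMT6-1 ratio of 0.286 (0.146 to 0.524). NFKB2 had 33, 23 and 67, a siPRMT6-2 ratio of 2.37 (1.54 to 3.72), and RELA had 36, 33 and 30. Among the NF-kappaB-type members, CXCL16 and IL1A were above siNC in siPRMT6-1, and the class sum with them. IL1A passed the filter only through siPRMT6-1, so it had to be high there. CCL2, CCL20, CXCL1, CXCL8 and IL32 had at most 1 count in siNC and in siPRMT6-1 and show no direction. The difference between the lists was not tested.

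**Figure D5:**
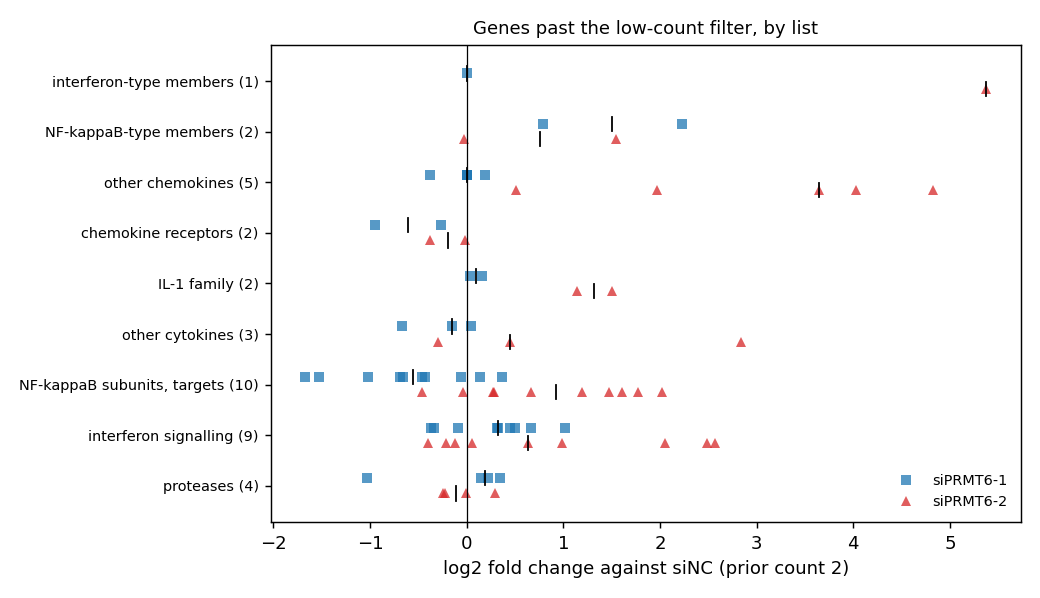
Log2 fold change against siNC (x axis, log2 CPM with a prior count of 2) of each gene past the filter on low counts, by list (y axis, number of genes in brackets), for siPRMT6-1 (squares) and siPRMT6-2 (triangles), with a black bar at each list's median. The NF-kappaB subunits and targets centre on -0.56 in siPRMT6-1 and 0.93 in siPRMT6-2 (0.28 without the 3 genes that passed the filter only through siPRMT6-2). The NF-kappaB-type members CXCL16 and IL1A lie at 0.79 and 2.22 in siPRMT6-1, the only library through which IL1A passed the filter.

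The interferon side showed counts of the signalling genes but almost none of the ligands. Of 14 genes of interferon signalling, all had a count and 9 were tested. The median was 0.33 in siPRMT6-1, and in siPRMT6-2 it was 0.64, or -0.03 over the 6 genes that did not pass the filter through that library alone. At least 2-fold higher were 3 in siPRMT6-2, against 8.16% of all tested genes, and 1 in siPRMT6-1, against 4.89%. IRF1 was at least 2-fold higher in both. Of the 3, 2 passed the filter only through siPRMT6-2, IRF1 among them. JAK1 had 19, 17 and 17 and IFNGR2 had 23, 31 and 18, both with an opposite-strand partner. IRF1, a factor at interferon and kappaB-driven promoters, had 2, 6 and 18 counts. Its siPRMT6-1 ratio was 3.12 (0.558 to 31.6), an interval that includes 1. Of 21 interferon genes, 2 had a count, none was tested, and the list summed to 1, 0 and 9. IFNL1, an interferon lambda gene, had 1, 0 and 7 of these, and IFNB1 had 0 in each library.

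Markers of leukocytes, the cells best known for CCL5, were nearly absent apart from CD68. The 12 markers summed to 18, 22 and 61 counts, and 5 of the 12 had a count. CD68, a lysosomal protein of macrophages that other cells also make, supplied 17, 19 and 56 of these. PTPRC, CD14, CD3D, CD3E, MS4A1, CD79A and TYROBP, which include the defining pan-leukocyte, T cell and B cell markers, had 0 in each library, LYZ had 0, 0 and 1, LAPTM5 had 0, 0 and 3, ITGAM had 0, 1 and 1, and NKG7 had 1, 2 and 0. The labels name HEC1B, a single cell line, for every library, and whether other cells had a part in the CCL5 counts was not tested. Fibroblast markers summed to 540, 368 and 376 counts, of which COL1A1 held 515, 354 and 370. Only 4 of these 8 markers had a count, and COL1A2, COL3A1, DCN and LUM had 0 in each library. Endothelial markers summed to 27, 27 and 15, and 4 of 7 had a count. PECAM1 had 19, 16 and 5, CLDN5 had 7, 9 and 9, and CDH5, KDR and TEK had 0. Neither sum was highest in siPRMT6-2, but each rests on few genes. In bulk RNA, more cells of a type and more RNA per cell cannot be told apart.

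The genes most like each class in their split over the 3 libraries were looked up among 3712 genes with at least 50 counts in all. The interferon-type sum was 0%, 0% and 100% in siNC, siPRMT6-1 and siPRMT6-2 after scaling to library size. With 7 genes tied at the same split, the 5 with the most counts were IFI6 with 330 counts in siPRMT6-2, OAS2 with 133, ISG20 with 100, IFITM1 with 89 and HLA-B with 82, each with 0 elsewhere. All 5 are well-known interferon-inducible genes. The NF-kappaB-type sum was split as 21.8%, 45.4% and 32.8%, and the nearest genes were PGAP2 (12, 24 and 15 counts), the nuclear noncoding RNA MALAT1 (148, 297 and 185), IFT74 (17, 35 and 23), ATP6AP1 (12, 24 and 16) and INO80E (19, 37 and 23), at distances of 0.00772 to 0.0118 between the vectors of shares. None of these 5 is a chemokine or cytokine. With 3 libraries, such likeness describes an order of libraries and says nothing of shared control.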

How the data were processed

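The authors deposited raw read counts for 26485 genes in 3 libraries, as whole numbers without normalization. Per the labels' protocols, column-purified total RNA went into a stranded low-input library kit. The submitters' processing notes name STAR 2.7.8a, featureCounts 2.0.10 and the build hg38. The file headers instead give featureCounts 2.0.1, run on read pairs with UCSC gene models and strand setting 1, adding reads where genes overlap to every such gene, and the names of its input alignments point to UMI-based deduplication. Strand setting and overlap rule can move counts of genes that share exon bases.

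Counts were scaled with TMM library sizes (edgeR 4.0.16, R 4.3.3) to CPM, and levels between genes were compared per kilobase of exon in the authors' gene models. Ratios of libraries have exact 95% binomial (Clopper-Pearson) intervals and counts exact Poisson intervals (scipy 1.17.1). Where a library had 0, the ratio takes 3 counts in its place, as a bound against the floor and not a limit of counting error. No ratio was formed where both libraries were at or under 3. All 3 libraries entered edgeR's quasi-likelihood F-test (filterByExpr with a minimum count of 10 and a minimum total of 15, two-sided, Benjamini-Hochberg adjusted p under 0.05), which was tested on simulated data. With a lone control, enough counts in a single library pass the filter. With 1 control library, its spread was taken to be that of the knockdown pair. DESeq2 1.42.0 was an alternative, and others changed normalization, prior count, filter and libraries.

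The members, lists and tests were chosen with earlier results of these data known. Named were all members, PRMT6, in each list the up to 3 genes with most counts (at least 10 in all), and the 5 genes nearest to each class sum. Genes past a 2-fold change in short lists, neighbours of the members, and other genes given with counts, such as CCL3L3, CXCL2, NFKBIA, IRF1, IFNL1, ADAM10, ADAM17 and the receptors, were named after their values were seen. Some genes that this rule names are not reported here.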

Additional observations from a re-analysis of the deposited data

How the results depend on the processing

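Size factors of DESeq2 or plain library totals in place of TMM moved the interferon-type bound in siPRMT6-2 only to 29.6 and 28.8 and kept the other class ratios within their counting intervals. Leaving out the members with exons that overlap a gene on the other strand, which removes CXCL16 only, moved the NF-kappaB-type ratio to siNC to 4.51 in siPRMT6-1 and 5.84 in siPRMT6-2, and the ratio of all 10 members to 4.51 and 35.5. Taken over both knockdown libraries, the mean level relative to siNC was 14.8 for the interferon-type sum (a bound against 3 counts). It was 1.79 (1.50 to 2.08) for the NF-kappaB-type sum and 3.38 (2.08 to 4.68) for all 10, with the range when either knockdown library was left out in brackets. The interferon-type bound was 29.6 without siPRMT6-1. Without siPRMT6-2 the interferon-type sum was 0 in both remaining libraries, so no ratio exists there and the bound rests on siPRMT6-2. Of 24 alternative values for 6 member fold changes, 20 stayed within their counting error, 0 reversed and 4 moved, all of them CCL5 and IL32 under another prior count (CCL5 7.35 with a prior of 0.5 and 4.11 with 5, IL32 3.82 and 1.21, against 5.38 and 2.10). IL1A in siPRMT6-2 stayed within its wide counting interval, but ran from 2.30 to 0.96 under the same priors, the latter under 2-fold. The number of genes called was 0 with DESeq2, with DESeq2 size factors in edgeR and without a filter (of 16244 genes), and 32 with edgeR's older quasi-likelihood fit, all higher, with CCL5 among them and CXCL16 and IL1A not; the cause was not tested. Leaving out a knockdown library leaves 1 against 1, with no residual degrees of freedom, so no test was run there. No paired analysis was possible because the control has a single library with no siRNA number. Depth limits the rest: 6 members had under 5 counts in all, and values below 7.78 to 9.09 CPM could not be compared.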
